A study of Anableps anableps with 8 samples.

Results

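The genes that make, load and recover GABA were taken from the gene table of a single-nucleus RNA sequencing study of the retina of Anableps anableps, a fish that lives at the water surface. Every row named GAD2, gad1a, gad1b, SLC32A1, slc6a1a, slc6a1b or slc6a1l was kept, which gave 8 of 22934 genes from 7 symbols. SLC32A1 has 2 rows, ENSABLG00000006643 and ENSABLG00000014099, and these copies were kept apart. The other identifiers are ENSABLG00000003599 for GAD2, ENSABLG00000006698 for gad1a, ENSABLG00000003762 for gad1b, ENSABLG00000012351 for slc6a1a, ENSABLG00000009978 for slc6a1b and ENSABLG00000015101 for slc6a1l.

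Nuclei came from whole adult retinas, with no treatment, genetic change or comparison group in the labels. The gene-level matrix pools 2 retina names, called retina 1 and retina 2 here, which match no label, so it was handled as 1 sample and no difference was tested. The 6430 barcodes with at least 500 unique molecular identifiers (UMIs, each 1 counted transcript) were taken as nuclei and held 93.6% of the UMIs. Levels are UMIs of a gene per 1000000 UMIs of a class (CPM), and intervals are 95% exact counting intervals that leave out variation between animals.

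Glutamate decarboxylases make GABA, the main inhibitory transmitter of the retina, from glutamate, and GAD2 and the GAD1 copies are separate genes for that step. SLC32A1 is the vesicular transporter that loads GABA and glycine into synaptic vesicles. The other 3 genes were read as plasma membrane transporters that take GABA back up, and the inhibitory interneurons of the retina are the amacrine and horizontal cells.

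Classes were rebuilt here by clustering and named from marker genes, with the 8 GABA genes kept out of the clustering and of the marker lists. The amacrine-like class held 255 nuclei with a median of 5896 UMIs. Its amacrine markers included TFAP2B at 46.2 CPM, CHAT at 66.1 CPM and meis2a at 2561 CPM, while lhx1a was at 0 and onecut3a at 0.906 CPM. The horizontal-like class held 126 nuclei with a median of 4148 UMIs, with onecut3a at 478 CPM, ONECUT2 at 624 CPM, lhx1a at 39.5 CPM and ompa at 24.0 CPM, against 16.9 CPM of TFAP2B and 2.82 CPM of CHAT. Other markers separated the classes less. TFAP2A was at 48.0 CPM in amacrine-like and 43.7 CPM in horizontal-like nuclei, and the amacrine marker TFAP2E at 29.0 and 86.1 CPM. Amacrine-like nuclei held ONECUT2 at 74.7 CPM. Summed, the amacrine list was at 2852 CPM in amacrine-like and 666.0 CPM in horizontal-like nuclei, and the horizontal list at 188.4 and 1964 CPM. Most of the amacrine sum was meis2a, and cone-like nuclei held 1804 CPM of that list. The classes were named from these lists, so the sums are no separate check of the names.

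Neither class was free of other cells' RNA. The summed level of the rod marker list was 2516 CPM in amacrine-like and 1985 CPM in horizontal-like nuclei, and that of the cone list was 2653 and 2057 CPM. A high doublet score was found for 60.0% of the amacrine-like and 61.1% of the horizontal-like barcodes. Unnamed clusters held between 42.3% of the UMIs of slc6a1l and 64.4% of those of SLC32A1 ENSABLG00000014099, so a large part of each gene's transcripts lay in nuclei with no class name. One of them, with 280 barcodes and a median of 22380 UMIs, was led by CHAT and gabra6b and had 7 bipolar and 6 amacrine markers. Below it is called the deep unnamed cluster. The part of these other cells in the values that follow was not tested beyond leaving their barcodes out.

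In the named classes, the 8 genes were high in amacrine-like nuclei, in horizontal-like nuclei or in both, and the copies of a gene were not shared alike. GAD2 was at a similar level in both classes. The gad1a copy and slc6a1l were found with the horizontal-like class, slc6a1a and slc6a1b with the amacrine-like class, and gad1b with both but more so in horizontal-like nuclei. Both SLC32A1 copies had higher summed levels in amacrine-like nuclei, a direction that turned when nuclei were picked by detected markers with no clustering (log2 ratios of 0.48 and 0.53 to the horizontal side). Most of the nuclei picked that way lay outside the clustered class of the same name.

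For background, 107803 barcodes under 100 UMIs were pooled as free RNA. In free RNA, gad1b was at 41.6 CPM (34.3 to 49.96), gad1a at 22.3 CPM (17.0 to 28.6) and slc6a1a at 32.1 CPM (25.7 to 39.6). The other genes lay between 4.01 CPM for SLC32A1 ENSABLG00000006643 and 26.6 CPM for slc6a1b. In the 10 other named classes, no level of any of the 8 genes was above the upper bound of its free RNA level. The highest among them for gad1b was 27.1 CPM, in ganglion-like nuclei, and for slc6a1a 26.0 CPM, in microglia-like nuclei. Rod-like and cone-like nuclei lay further below free RNA, with gad1b at 10.1 and 1.44 CPM and slc6a1a at 3.82 and 0.865 CPM. The part of a class's UMIs that is free RNA was not measured. Levels under that of free RNA are therefore read neither as expression nor as background. The 10 classes leave out the deep unnamed cluster. At clustering resolution 1 a cluster of 314 nuclei with CHAT and gabra6b among its leading genes was named bipolar-like. At resolution 0.5 one of 712 nuclei with 8 bipolar and 6 amacrine markers was named so too. The bipolar-like levels at those coarser settings were not set against free RNA.

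**Figure D1:**
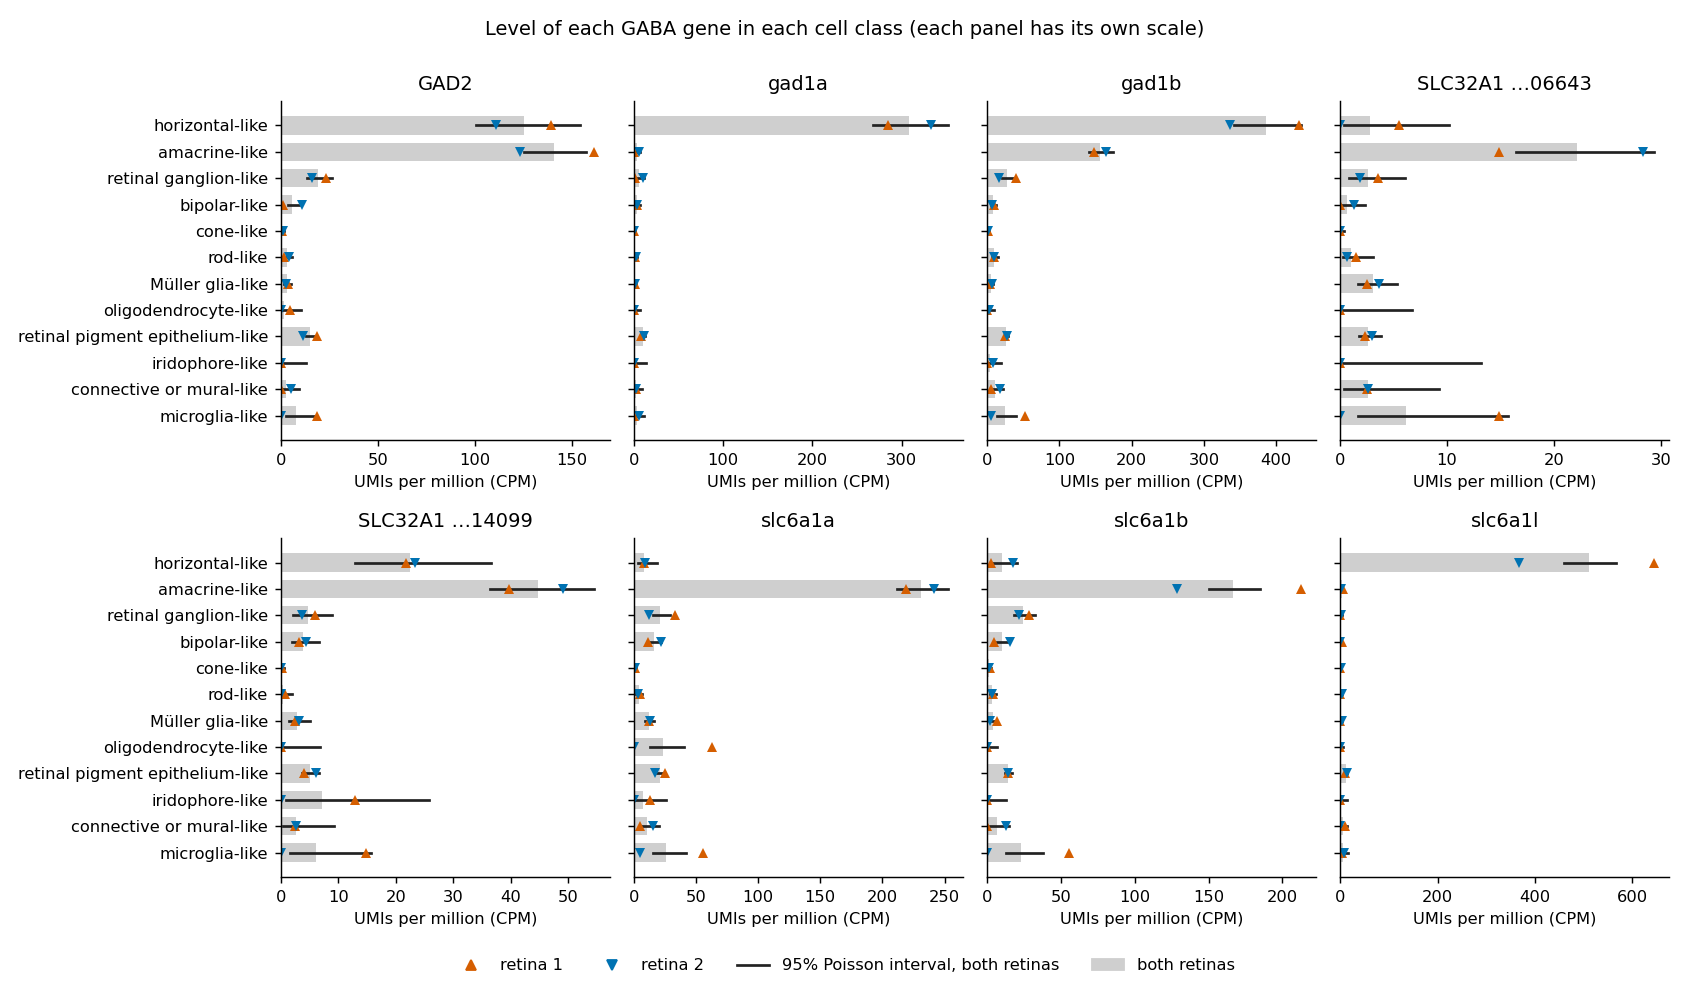
Level of each of the 8 genes (CPM, horizontal axis, own scale per panel) in 12 named classes. Bars are both retinas together with 95% Poisson intervals, upward triangles retina 1 and downward triangles retina 2; GAD2 and gad1b stand out in both the amacrine-like and horizontal-like classes, gad1a (308 CPM) and slc6a1l (511 CPM) in horizontal-like nuclei, and slc6a1a (231 CPM) and slc6a1b (167 CPM) in amacrine-like nuclei.

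GAD2, the decarboxylase tied to synaptic vesicles, was at 161.7 CPM in retina 1 and 123.3 CPM in retina 2 among amacrine-like nuclei. Among horizontal-like nuclei it was at 139.3 CPM in retina 1 and 110.9 CPM in retina 2. The ranges of the 2 classes overlapped, and so did the intervals of the pooled levels, 140.8 CPM (125.6 to 157.4) and 125.6 CPM (100.8 to 154.5). GAD2 was detected in 47.5% of amacrine-like and 30.2% of horizontal-like nuclei, and in 25.3% and 23.0% once each nucleus was thinned to 2000 UMIs. Here and below, thinning left out the nuclei with fewer UMIs than that. It kept 221 of 255 amacrine-like, 100 of 126 horizontal-like and 506 of 1439 rod-like nuclei. Its level was 3.13 CPM in rods, which should lack it, and 3.11 CPM in Müller glia-like nuclei.

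The gad1b copy was the broader of the pair of GAD1 genes. In horizontal-like nuclei it was at 431.6 CPM in retina 1 and 335.6 CPM in retina 2. In amacrine-like nuclei it was at 147.8 and 164.2 CPM. Both horizontal-like values were above both amacrine-like values, and the pooled levels were 385.2 CPM (340.8 to 433.7) against 156.7 CPM (140.6 to 174.1). It was detected in 38.9% of horizontal-like and 45.1% of amacrine-like nuclei. After thinning to 2000 UMIs the shares were 33.0% and 25.3%, and no order is read from the unthinned ones. Rods held 10.1 CPM, and 1.38% of thinned rod-like nuclei had a transcript.

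The gad1a copy was nearly missing from amacrine-like nuclei. It gave no UMI there in retina 1 and 5.83 CPM in retina 2, from 7 UMIs in 5 of 255 nuclei. In horizontal-like nuclei it was at 284.1 CPM in retina 1 and 332.7 CPM in retina 2, in 35.7% of the nuclei. The classes did not overlap, and the amacrine-like level, 3.17 CPM (1.27 to 6.53), lay under the free RNA level of gad1a.

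The SLC32A1 copies, the vesicular step, were the least abundant of the set with 253 UMIs of ENSABLG00000006643 and 585 UMIs of ENSABLG00000014099 in all nuclei. ENSABLG00000014099 was at 39.7 and 49.2 CPM in amacrine-like nuclei of retina 1 and retina 2, and at 21.9 and 23.4 CPM in horizontal-like nuclei. The retinas did not overlap between classes, but the intervals of the pooled levels, 44.8 CPM (36.4 to 54.6) and 22.6 CPM (12.9 to 36.7), met at their ends. A transcript of this copy was found in 26.3% of amacrine-like and 7.94% of horizontal-like nuclei.

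ENSABLG00000006643 was at 14.9 CPM in retina 1 and 28.3 CPM in retina 2 of the amacrine-like class. The horizontal-like class gave 2 UMIs of it, both in 1 nucleus. This copy was therefore seen above free RNA in the amacrine-like class alone among the named classes, at 22.2 CPM (16.4 to 29.3) against 4.01 CPM (2.003 to 7.18) in free RNA. Any SLC32A1 transcript was found in 34.1% of amacrine-like, 7.94% of horizontal-like and 0.278% of rod-like nuclei. At 2000 UMIs the shares were 14.0% (9.73 to 19.3), 6.0% (2.23 to 12.6) and 0.198% (0.00500 to 1.096). The horizontal-like share depends on the random draw. In the draw used for co-detection below, each copy was found in 1 of 100 horizontal-like nuclei, and no nucleus held both.

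Of the reuptake genes, slc6a1a was detected in 55.3% of amacrine-like nuclei. It was at 219.2 CPM in retina 1 and 241.7 CPM in retina 2 there. In horizontal-like nuclei it was at 8.19 and 8.76 CPM, from 6 UMIs in all. The classes were far apart in both retinas, and the horizontal-like level was below that of free RNA.

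The slc6a1b copy had the same class as slc6a1a, with a wider gap between the retinas. It was at 212.3 CPM in retina 1 and 128.3 CPM in retina 2 of the amacrine-like class, and at 2.73 and 17.5 CPM in the horizontal-like class. It was detected in 30.2% of amacrine-like nuclei, with up to 36 UMIs in 1 nucleus.

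The third reuptake gene, slc6a1l, had the opposite class. In horizontal-like nuclei it was at 644.6 CPM in retina 1 and 367.7 CPM in retina 2, in 37.3% of the nuclei. In amacrine-like nuclei it was at 4.96 and 1.67 CPM, from 7 UMIs. Retina 1 was higher than retina 2, and both were far above the amacrine-like values.

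Each class was then set against all other named classes together. A gene was counted as higher or lower when the ratio of CPM was 4-fold or more with both retinas together and in each retina alone, among genes with at least 20 UMIs over both arms. In amacrine-like nuclei 6 of the 8 genes were higher, against 3.23% of the 16201 genes compared. The ratios were 14.9-fold for GAD2, 7.89-fold for gad1b, 13.8-fold and 14.6-fold for the SLC32A1 copies ENSABLG00000006643 and ENSABLG00000014099, 19.4-fold for slc6a1a and 20.5-fold for slc6a1b. The remaining pair, gad1a and slc6a1l, lay on the low side at log2 ratios of -1.67 and -2.19 and did not reach 4-fold in each retina, so 0 of 8 were lower, against 3.48% of all genes compared. At clustering resolution 1 the count of higher genes was 5, without gad1b. The slc6a1l gene counted as lower when each nucleus was given the same weight, in retina 2 alone and at a fold of 2.

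In horizontal-like nuclei 5 of the 8 genes were higher, against 2.57% of all genes compared. They were slc6a1l at 119.2-fold, gad1a at 78.2-fold, gad1b at 18.3-fold, ENSABLG00000014099 at 4.34-fold and GAD2 at a log2 ratio of 3.06. None of the 8 was lower, against 1.87%. However, slc6a1a counted as lower with coarser clusters, with the deep unnamed cluster added to the amacrine-like class and at a fold of 2. In retina 1 alone slc6a1b counted as lower. Of the 16 UMIs behind the value of ENSABLG00000014099, 11 lay in 19 nuclei led by ltk that are described below, and the sub-clusters led by prox1a, STRIP2 and CHP1 gave 0, 1 and 1. This copy did not count as higher when each nucleus was given the same weight, which left 4 genes. With coarser clusters, or with the deep unnamed cluster added to the amacrine-like class, the count was 3, made up of gad1a, gad1b and slc6a1l.

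The direct comparison of the 2 interneuron classes separated the copies. With horizontal-like over amacrine-like nuclei, gad1a and slc6a1l were higher (2 of 8, against 2.56% of 10608 genes), and slc6a1a and slc6a1b were lower (2 of 8, against 3.12%). These 4 genes were called under every alternative clustering, filter and retina tried that gave both classes. In nuclei picked by detected markers with no clustering, slc6a1a and slc6a1b were only slightly lower, at log2 ratios of -0.43 and -0.32. Most of those nuclei lay outside the clustered class of the same name. Between the clustered classes the log2 ratio of slc6a1l was 7.33 (6.27 to 8.66), coming to 7.02 in retina 1 and 7.79 in retina 2. That of gad1a was 6.60 (5.53 to 7.93). It was at least 6.58 in retina 1, where no amacrine-like UMI was found and a floor of 3 counts was used, and it was 5.83 in retina 2.

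On the amacrine-like side the log2 ratio of slc6a1a was -4.77 (-6.23 to -3.64), with -4.74 and -4.79 in the retinas. That of slc6a1b was -4.08 (-5.40 to -3.02), coming to -6.28 in retina 1 and -2.87 in retina 2. The retinas gave nearly the same ratio for slc6a1a and very different ones for slc6a1b, whose horizontal-like arm held 7 UMIs.

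The other 4 genes did not reach 4-fold in each retina, except that ENSABLG00000014099 counted as lower in horizontal-like nuclei when high doublet scores were left out, at a log2 ratio of -2.07. The log2 ratio of gad1b was 1.30 (1.06 to 1.53), with 1.55 and 1.03 in the retinas, and its interval lay above 0. That of GAD2 was -0.17 (-0.52 to 0.18), which includes no difference, and it ran from -0.67 to 0.53 over the settings tried. ENSABLG00000014099 gave -0.99 (-1.85 to -0.22) and ENSABLG00000006643 gave -2.98 (-6.06 to -1.05), the latter with 2 horizontal-like UMIs.

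**Figure D2:**
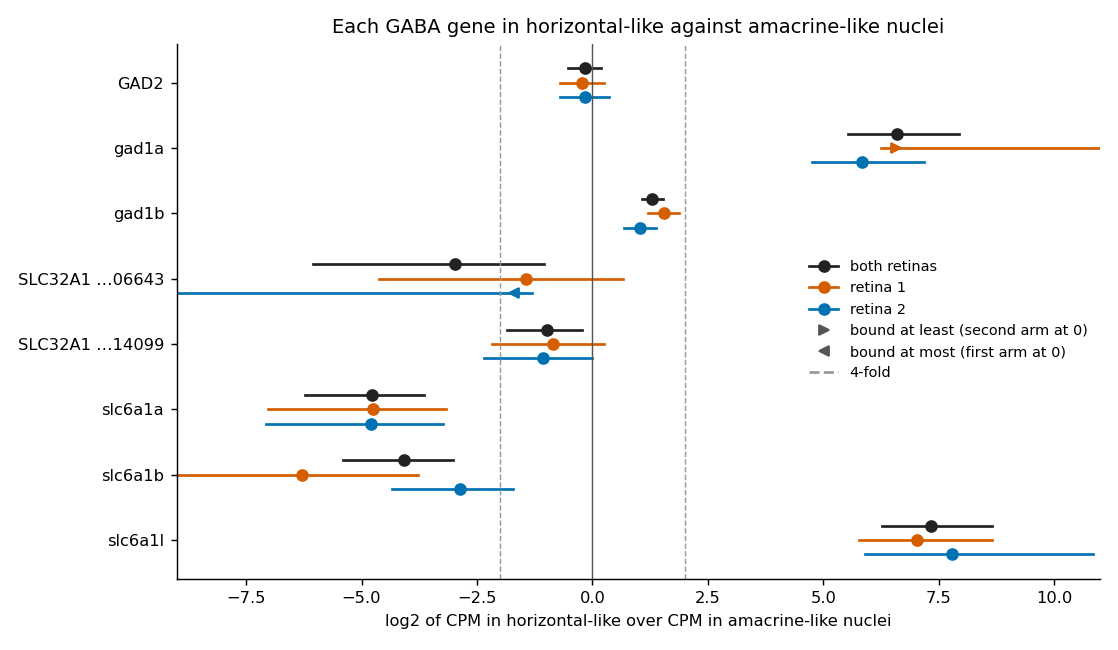
Log2 ratio of the CPM in horizontal-like over amacrine-like nuclei (horizontal axis) for each of the 8 genes, with 95% exact conditional intervals. Black marks both retinas together, orange retina 1 and blue retina 2, triangles are bounds from a floor of 3 counts, intervals are cut at the ends of the axis, and dashed lines mark 4-fold; slc6a1l and gad1a lie far to the right, slc6a1a and slc6a1b far to the left, and GAD2 close to the line of no difference.

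How transcripts were divided between copies can be compared across classes without gene lengths. The share of gad1a in all gad1a and gad1b UMIs was 39.7% in retina 1 and 49.8% in retina 2 of the horizontal-like class. In the amacrine-like class it was 0 of 149 UMIs in retina 1 and 3.43% in retina 2. Pooled, the shares were 44.4% (39.9 to 48.9) of 491 UMIs and 1.98% (0.801 to 4.04) of 353 UMIs, and the intervals were far apart. Free RNA lay between them at 34.9% (27.8 to 42.4).

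Within the amacrine-like class, slc6a1b made up 49.2% of the slc6a1a and slc6a1b UMIs in retina 1 and 34.7% in retina 2. Both values lay outside the interval of the pooled share, 41.9% (38.6 to 45.2). GAD2 made up 52.2% and 42.0% of the decarboxylase UMIs of amacrine-like nuclei and 16.3% and 14.2% of those of horizontal-like nuclei, in retina 1 and retina 2. The pooled GAD2 shares, 46.8% (43.0 to 50.7) and 15.3% (12.5 to 18.5), did not overlap, although GAD2 itself was at a similar level in both classes. SLC32A1 ENSABLG00000006643 made up 33.1% (25.6 to 41.3) of the SLC32A1 UMIs of amacrine-like nuclei, with 27.3% and 36.6% in the retinas, and 26.2% of those of free RNA.

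**Figure D3:**
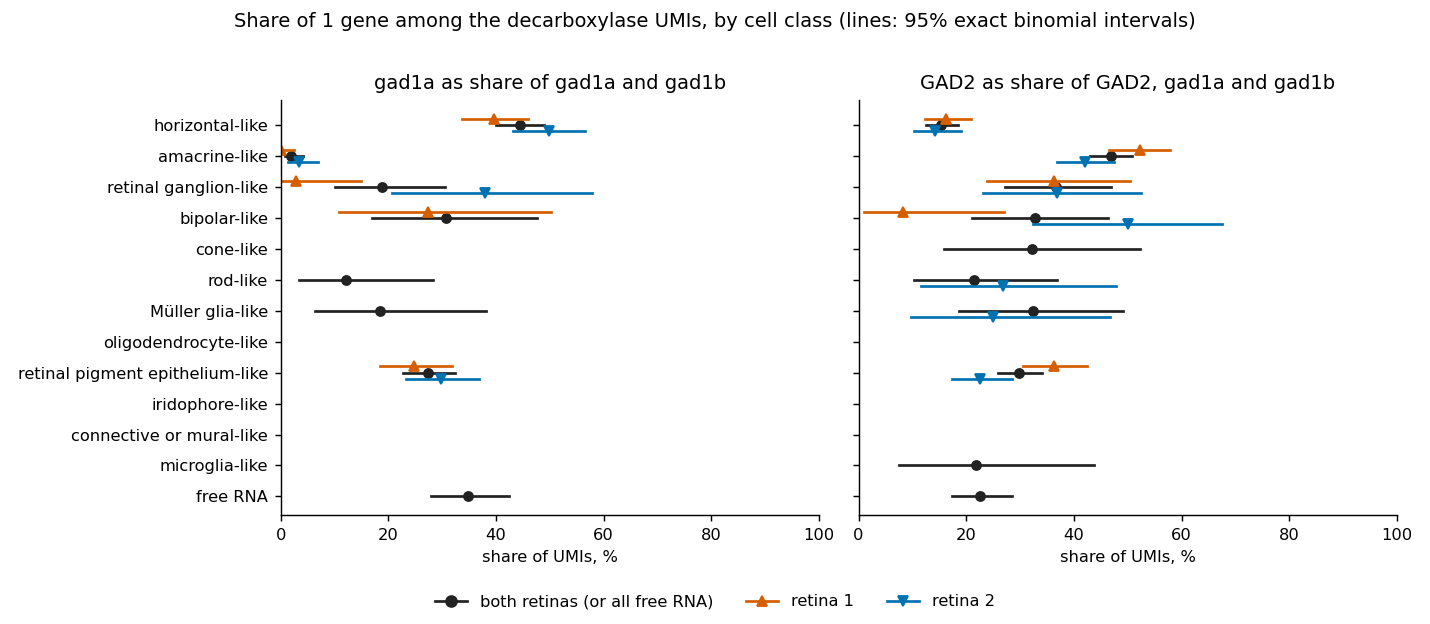
Share of gad1a in the gad1a and gad1b UMIs and of GAD2 in all decarboxylase UMIs (percent, horizontal axis) by class and in free RNA, for both retinas (circles) and each retina (triangles), with 95% exact binomial intervals; values from fewer than 20 UMIs are not drawn. The share of gad1a is 44.4% in horizontal-like and 1.98% in amacrine-like nuclei, and that of GAD2 is 15.3% and 46.8%.

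The horizontal-like nuclei were not alike. No transcript of gad1a, gad1b or slc6a1l was found in 66 of 126 nuclei (52.4%, median 2888 UMIs), while all 3 were found in 34 nuclei (27.0%, median 7914 UMIs). The depth of the 2 groups differed, so these shares are not a count of nuclei that lack the genes. The 10 highest nuclei held 54.1% of the slc6a1l UMIs, 53.2% of the gad1a UMIs and 49.1% of the gad1b UMIs, and a single nucleus held up to 43 UMIs of slc6a1l.

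Clustered again alone, without the 8 genes, the horizontal-like nuclei fell into 5 sub-clusters, each called here by its leading gene. In 3 of them, led by prox1a (38 nuclei), STRIP2 (32 nuclei) and CHP1 (21 nuclei), gad1a, gad1b and slc6a1l were all present. The levels were highest in the CHP1-led nuclei, where slc6a1l was at 1170.5 CPM in retina 1 and 1685 CPM in retina 2. There gad1a was at 520.2 and 1264 CPM and gad1b at 823.7 and 1319 CPM. In the prox1a-led nuclei slc6a1l was at 378.1 CPM (304.4 to 464.3), and in the STRIP2-led nuclei at 482.0 CPM (399.7 to 576.4), against 1532 CPM (1269 to 1833) in the CHP1-led nuclei.

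These sub-clusters also differed in how much RNA of other cells they held. A high doublet score was found for 9.52% of the CHP1-led, 71.1% of the prox1a-led and 78.1% of the STRIP2-led barcodes. The summed cone marker level was 51.5 CPM in the CHP1-led nuclei, 2285 CPM in the prox1a-led and 3077 CPM in the STRIP2-led nuclei. The part of that RNA in the lower levels was not tested.

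The 19 nuclei led by ltk had a different set. They held no UMI of gad1a or slc6a1l, which allows up to 31.9 CPM of each (3 counts), and 2 UMIs of gad1b. GAD2 was at 219.8 CPM in retina 1 and 176.6 CPM in retina 2, and SLC32A1 ENSABLG00000014099 at 157.0 and 96.3 CPM. The pooled SLC32A1 level, 116.8 CPM (58.3 to 209.1), was above that of free RNA in these nuclei, while the CHP1-led nuclei gave 1 UMI of this copy. The ltk gene, a receptor kinase known from the iridophore lineage of zebrafish, gave 545 of the 546 UMIs of the iridophore list here, with 3 of its 5 markers at 0. The onecut3a level was 871.0 CPM and that of ISL1, a factor of some horizontal cells in chicken that was picked after its values were seen, was 201.8 CPM. The lhx1a gene was at 0. RNA of other cells was present here too, with summed rod, cone and bipolar marker levels of 2294, 797 and 1115 CPM. The CHP1-led nuclei held 476, 51.5 and 296 CPM of these lists. The part of that RNA in this set was not tested.

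The 16 nuclei led by nrp2b were fewer and less even. GAD2 was at 232.2 CPM in retina 1 and 232.9 CPM in retina 2, and gad1a was at 0 in both. With both retinas together, 1 UMI stands for 21.1 CPM in these nuclei, so low levels of gad1a could be missed. All 32 UMIs of slc6a1l came from retina 1, so the pooled 676.0 CPM rests on that retina alone. The amacrine marker list summed to 1542 CPM there, against 321.9 CPM in the CHP1-led nuclei, with TFAP2B at 253.5 CPM. The rod and cone lists summed to 2113 and 1331 CPM in the nrp2b-led nuclei.

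**Figure D4:**
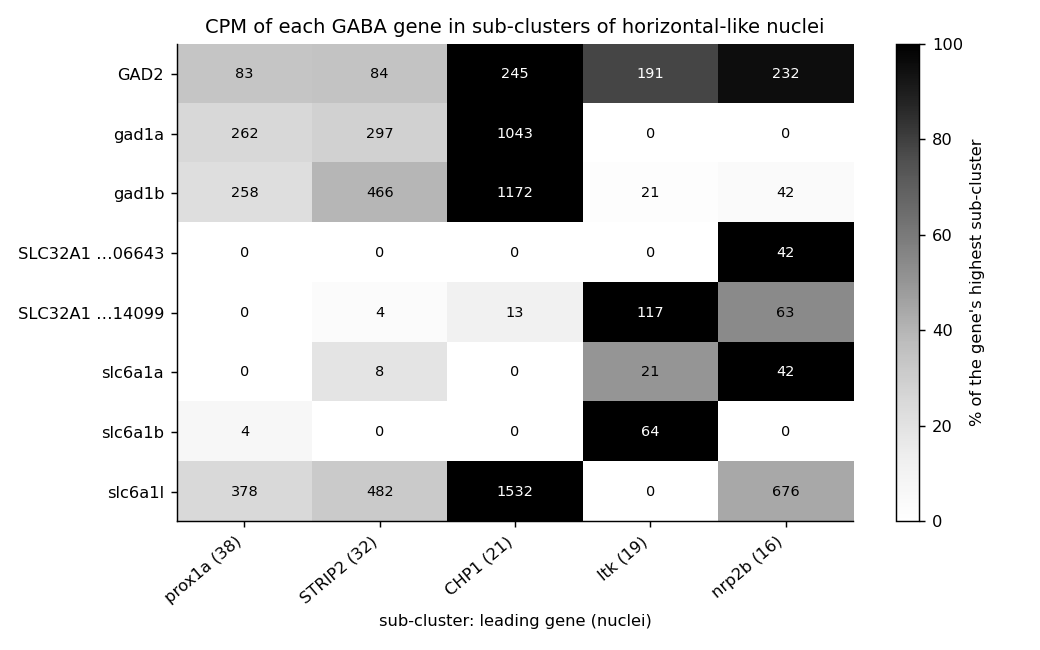
Level of each gene (CPM, printed in the cells) in the 5 sub-clusters of the horizontal-like nuclei, shaded by percent of the gene's highest sub-cluster. The gad1a, gad1b and slc6a1l rows are darkest in the CHP1-led nuclei and gad1a is 0 in the ltk-led and nrp2b-led nuclei; the SLC32A1 ENSABLG00000006643 and slc6a1a rows rest on 2 UMIs or fewer per cell.

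The amacrine-like nuclei and the deep unnamed cluster, clustered together without the 8 genes, gave 13 sub-clusters. The highest levels of 4 genes lay in the 72 nuclei led by OPRM1. There slc6a1a was at 431.3 CPM in retina 1 and 462.3 CPM in retina 2, slc6a1b at 555.7 and 331.0 CPM, and GAD2 at 342.3 and 285.1 CPM. The gad1b gene was at 289.9 CPM (239.5 to 347.7) in the same nuclei and gad1a at 5.00 CPM. The 45 crtac1b-led nuclei resembled them in direction, with slc6a1a at 328.0 CPM, slc6a1b at 293.4 CPM and GAD2 at 178.6 CPM.

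Sub-clusters differed most in slc6a1b. It was at 18.6 CPM (7.46 to 38.2) in the 29 nuclei led by ADAMTS16, where TH, the dopamine synthesis enzyme, was at 111.3 CPM from 4 nuclei. It was at 12.3 CPM (4.51 to 26.7) in the 18 nuclei led by ENSABLG00000010876, where CHAT, the acetylcholine synthesis enzyme, was at 286.5 CPM. Both held gad1b, at 238.6 and 206.7 CPM, and slc6a1a, at 140.5 and 88.0 CPM. The low slc6a1b level was thus found beside gad1b levels that overlapped those of the OPRM1-led nuclei. Sub-clusters can hold barcodes of the deep unnamed cluster, so this contrast is not read as one between amacrine types.

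A sub-cluster of 62 nuclei led by GFRA3 held the vesicular transporter with little of the synthesis genes. SLC32A1 ENSABLG00000014099 was at 61.1 CPM in retina 1 and 105.7 CPM in retina 2 there, in 23 nuclei. GAD2 was at 26.3 CPM (13.1 to 47.0), gad1b at 16.7 CPM (6.73 to 34.5) and slc6a1a at 9.56 CPM (2.61 to 24.5). The GAD2 interval overlapped that of free RNA, and gad1b and slc6a1a were at or below theirs, while slc6a1b, slc6a1l and gad1a were at 0. Without high doublet scores, 23 nuclei remained and gave 247.8 CPM of ENSABLG00000014099, 14.6 CPM of gad1b and no GAD2 UMI. With so few nuclei the missing GAD2 UMI is not read as absence of the gene. SLC6A5, the neuronal glycine transporter, gave 1 UMI in these nuclei and 35 in all nuclei, which is too few to describe. SLC6A9 was looked for as well, but only 1 row of the gene table matched the glycine transport list, that of SLC6A5. SLC6A9 therefore gave no value.

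**Figure D5:**
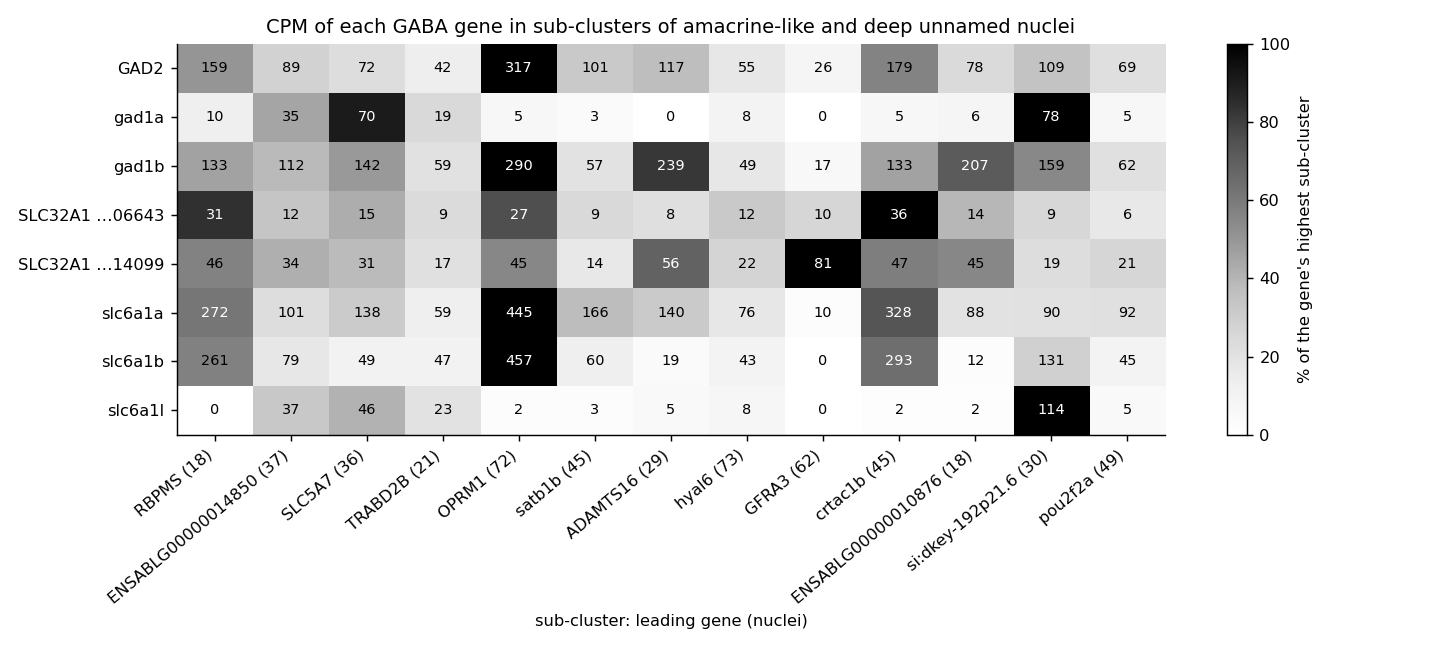
Level of each gene (CPM, printed in the cells) in the 13 sub-clusters of the amacrine-like nuclei and the deep unnamed cluster, shaded by percent of the gene's highest sub-cluster. GAD2, gad1b, slc6a1a and slc6a1b are darkest in the OPRM1-led nuclei, SLC32A1 ENSABLG00000014099 in the GFRA3-led nuclei, and gad1a and slc6a1l in the sub-clusters led by SLC5A7 and si:dkey-192p21.6, which hold only barcodes of the deep unnamed cluster.

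The gad1a and slc6a1l genes did appear in the deep unnamed cluster. In its 36 nuclei led by SLC5A7, with CHAT at 538.9 CPM, gad1a was at 70.4 CPM and slc6a1l at 46.4 CPM. In its 30 nuclei led by si:dkey-192p21.6, a gene that also led the horizontal-like cluster, they were at 77.9 and 113.8 CPM. The horizontal marker onecut3a moved with them, at 80.2 and 155.9 CPM, and 80.6% and 90.0% of these barcodes had a high doublet score. In the latter sub-cluster gad1a and slc6a1l were at 0 in the 3 nuclei without a high doublet score.

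Transcripts of different genes were also counted in the same nucleus, after thinning each to 2000 UMIs. In 100 horizontal-like nuclei, gad1a and gad1b were found together in 22, where 9.92 would follow from independent detection. For gad1b with slc6a1l the count was 23 against 10.2, and for gad1a with slc6a1l 21 against 9.92. GAD2 was found with slc6a1l in 14 against 7.04 and with gad1a in 8 against 6.82. The slc17a6b gene, a vesicular glutamate transporter, was found with slc6a1l in 14 against 8.64.

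In 221 amacrine-like nuclei, slc6a1a and slc6a1b were found together in 29, against 15.2 under independence, and GAD2 with gad1b in 24 against 15.5. GAD2 with slc6a1b gave 24 against 13.2, an excess that was absent at 1000 UMIs. GAD2 and CHAT shared no nucleus, against 3.59, while gad1b and CHAT shared 3, against 3.29. These numbers are small in either case. Nuclei that differ in the amount of foreign RNA also give such excesses. So does the pooling of sub-clusters that differ in their levels of these genes, as those above did. Neither part was tested.

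A transcript of any of the 3 decarboxylases was found in 61.96% of amacrine-like nuclei, 55.6% of horizontal-like nuclei, 7.78% of Müller glia-like nuclei and 2.50% of rod-like nuclei. At 2000 UMIs the shares were 41.6%, 53.0%, 1.202% and 2.77%. These are shares of the 221, 100, 416 and 506 nuclei deep enough to be thinned, so depth and the set of nuclei both changed. The horizontal-like share was below the amacrine-like one before thinning and above it after, so no order is read from these shares. None of the 8 genes was found in 18.8% of amacrine-like and 39.7% of horizontal-like nuclei, but at 2000 UMIs the shares were 34.8% (28.6 to 41.5) and 40.0% (30.3 to 50.3), whose intervals overlapped. An SLC32A1 transcript without any decarboxylase was found in 9.80% of amacrine-like nuclei, and in 8.14% at 2000 UMIs.

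Müller glia, the radial glia that take up GABA in many vertebrate retinas, showed little of the set. In the 450 Müller glia-like nuclei slc6a1a was at 12.2 CPM in retina 1 and 12.7 CPM in retina 2, below its free RNA level. The other 7 genes were between 1.196 CPM for gad1a and 5.26 CPM for gad1b. Against the other named classes 4 of the 8 genes were lower (GAD2, gad1a, gad1b and slc6a1l, against 3.3% of all genes compared), and 0 of 8 were higher, against 5.33%. Those other classes include the amacrine-like and horizontal-like nuclei, where these genes were high, so the count is not particular to Müller glia. In rod-like nuclei GAD2, gad1a, gad1b and slc6a1l were at 3.13, 1.39, 10.1 and 1.74 CPM. In Müller glia-like nuclei they were at 3.11, 1.20, 5.26 and 1.68 CPM, and in cone-like nuclei at 0.865, 0.384, 1.44 and 0.961 CPM. The count of lower genes was 0 when barcodes with high doublet scores or with rod or cone markers were left out.

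The slc6a1a gene was also compared between Müller glia-like nuclei with a tbx5 UMI (62) and those with a vax UMI (226), factors of the dorsal and ventral retina. It gave 7 and 20 UMIs, a log2 ratio of 0.39 (-1.09 to 1.69). For gad1b the counts were 2 and 14 and the ratio -0.90 (-4.08 to 1.22). Both intervals include no difference. The other genes had fewer than 10 UMIs over both arms, too few to compare by the minimum set. Among them SLC32A1 ENSABLG00000006643 gave 4 and 2 UMIs, a log2 ratio of 2.91 (0.10 to 6.37). GAD2 gave 3 and 5 UMIs, 1.17 (-1.52 to 3.53), and slc6a1b 4 and 5 UMIs, 1.59 (-0.75 to 3.80). For the SLC32A1 copy neither retina alone had enough UMIs for a ratio, so no difference is read.

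Other GABA genes were read from lists chosen for the pathway. For the counts below, 3.23% of all genes compared were higher and 3.48% lower in amacrine-like nuclei. In horizontal-like nuclei these shares were 2.57% and 1.87%, and in Müller glia-like nuclei 5.33% and 3.3%. The lists are short, so no count is read as a result about a list. Of 8 other GABA and related transporters compared, 1 was higher in Müller glia-like nuclei, SLC6A13, a GABA transporter of the GAT2 type, and SLC6A12 ENSABLG00000015092, a betaine and GABA transporter, was lower there, at 0.479 CPM, and in amacrine-like nuclei, at 1.36 CPM. The other SLC6A12 copy with enough UMIs, ENSABLG00000019821, was at 25.4 CPM in horizontal-like and 23.2 CPM in Müller glia-like nuclei. None passed 4-fold in horizontal-like nuclei. SLC6A13 was at 141.6 CPM in retina 1 and 145.3 CPM in retina 2 there, at 6.79 CPM in amacrine-like nuclei and at 0 in horizontal-like nuclei. The list's median log2 ratio in Müller glia-like nuclei was -0.26, against -0.17 over all genes.

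None of the 4 GABA breakdown genes passed 4-fold in any of the 3 classes. Their median log2 ratios in amacrine-like, horizontal-like and Müller glia-like nuclei were 0.61, 0.15 and 0.65, against -0.07, -0.16 and -0.17 over all genes. ABAT, the transaminase that degrades GABA, was at 428.9 CPM in amacrine-like, 313.2 CPM in horizontal-like, 354.2 CPM in Müller glia-like and 114.2 CPM in rod-like nuclei. The breakdown genes akr7a3 and aldh9a1b were at 8.85 CPM or less in these classes. Of 12 genes of glutamate supply, none passed in amacrine-like nuclei, glud1b was lower in horizontal-like nuclei at 5.64 CPM, and slc38a3b, a glutamine transporter, was higher in Müller glia-like nuclei at 38.5 CPM. Its relative slc38a3a was at 346.7 CPM there, against 152.4 CPM in horizontal-like nuclei, and the glutaminase gls2b was at 11.3 CPM in horizontal-like nuclei. The medians of this list were -0.30, -0.25 and -0.30 in the 3 classes, against -0.07, -0.16 and -0.17 over all genes.

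Of the 2 vesicular glutamate transporters compared, slc17a6b ENSABLG00000016416 was higher in horizontal-like nuclei and lower in amacrine-like and Müller glia-like nuclei. It was at 177.6 and 148.8 CPM in the horizontal-like nuclei of retina 1 and retina 2, and at 0.906 CPM in amacrine-like nuclei. Ganglion-like nuclei held 152.1 CPM. The other one, SLC17A7, was at 221.5 CPM in amacrine-like and 165.1 CPM in horizontal-like nuclei, against 261.8 CPM in rods. The slc17a6b gene was present in the CHP1-led sub-cluster at 360.5 CPM (239.5 to 521.0), where gad1a, gad1b and slc6a1l were highest, and at 85.0 CPM (36.7 to 167.4) in the ltk-led nuclei that lacked gad1a and slc6a1l.

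Of 6 genes of acetylcholine and monoamine identity compared, slc5a7a, a choline transporter, was higher in amacrine-like nuclei at 26.7 CPM and TH in Müller glia-like nuclei at 39.0 CPM. SLC5A7 was at 2.82 CPM or less in all 3 classes. Of 9 fate factors of GABA neurons, PRDM13 was higher in amacrine-like nuclei at 30.3 CPM, and it was at 28.2 CPM in horizontal-like nuclei. In Müller glia-like nuclei pax6b and both PAX2 copies were higher, with PAX2 ENSABLG00000022917 at 276.6 CPM and ENSABLG00000016956 at 17.5 CPM. In horizontal-like nuclei dlx1a was higher from 2 UMIs, and PAX2 was lower at 2.82 CPM. The median log2 ratios of the fate factors were -0.50 in amacrine-like, 1.77 in horizontal-like and -0.00096 in Müller glia-like nuclei. Those of the acetylcholine and monoamine list were 0.84, -0.83 and -0.84, and those of all genes -0.07, -0.16 and -0.17. In the direct comparison of horizontal-like with amacrine-like nuclei, slc17a6b was the only gene of these lists past 4-fold together and in each retina, on the horizontal-like side. SLC6A3 ENSABLG00000019323, the dopamine transporter, was at 143.1 CPM in amacrine-like and 21.2 CPM in horizontal-like nuclei. It missed that rule in retina 2, at 124.2 and 35.0 CPM.

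The genes most like each member were found by the Pearson correlation of log2(CPM + 10) over 35 clusters of at least 20 nuclei, given as a description since all clusters share the same libraries. For slc6a1l they were onecutl (0.963), onecut3a (0.959), REM1 (0.956), ENSABLG00000018526 (0.946) and ARHGEF3 (0.944). For gad1a they were mpp7b (0.948), onecut3b (0.910), ENSABLG00000011876 (0.898), ESRRB (0.894) and si:ch1073-70f20.1 (0.892). The horizontal marker onecut3a was thus among the nearest genes of slc6a1l, and onecut3b among those of gad1a. Both onecut3 genes stood in the list that named the horizontal-like class, where slc6a1l and gad1a were high. The correlations are therefore no separate link to that class.

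For gad1b the nearest were SLC4A8 (0.924), rnf220b (0.914) and CACNG2 (0.913), and for GAD2 they were DGKB (0.897), gad1b (0.894) and CACNG2 (0.887). For slc6a1b they were cabp1b (0.923), CHRNA6 (0.902) and RAP1GAP (0.902), and for slc6a1a dlgap1a (0.886), SLC32A1 ENSABLG00000006643 (0.883) and pax10 (0.880). The SLC32A1 copies had different neighbours. ENSABLG00000006643 was nearest to slc6a1b (0.889) and slc6a1a (0.883), and ENSABLG00000014099 to PASK (0.902), kcnab1b (0.892) and GAD2 (0.886). The latter copy also correlated at 0.83 with slc6a1a and at 0.82 with slc6a1b. Between members, slc6a1a and slc6a1b correlated at 0.87 and gad1a and slc6a1l at 0.83, while gad1a and slc6a1a correlated at 0.24.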

How the data were processed

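The deposited matrix holds raw UMI counts per barcode and gene, and per the file headers the deposited barcode table gives the transcript count, retina name and wells of each barcode. Per the labels' protocols, nuclei were barcoded by combinatorial barcoding (Parse Evercode) and sequenced with 150 bp paired-end reads (targets: 7000 nuclei for each sample, 20000 reads for each nucleus). In the series text there are 5 biological replicates, and in the labels 8 technical sublibraries. What aligner, build, annotation and intron rule were used was not given in the sources used here, so reads of similar copies could be divided between them or lost, and no coordinates or sequences are given. The 2 sublibraries of the matrix shared 99 well combinations.

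Barcodes with at least 500 UMIs were kept. After scaling to 10000 counts for each nucleus and a log transform, 2479 of 2500 variable genes entered, without the 8 members, the pathway lists and the tbx5 and vax genes. Leiden clusters (40 components, 15 neighbours, resolution 2) took the name of the class leading in markers, given 3 or more with a fold of 2 or more that were seen in 10% of the nuclei. A cluster stayed unnamed on a tie between classes. It also did when shallow with no marker of that class among its 10 leading genes. The same held when those 10 genes held more markers of another class, which left the deep unnamed cluster without a name. A cluster led by the lens gene cryaa was left unnamed after its leading genes were seen. Doublets were scored within each sublibrary by scanpy's scrublet. Its own threshold marked 0.0630% of one and 36.7% of the other sublibrary, so the threshold of the second, 0.0589, was used for both and marked 37.0% of nuclei. These barcodes were kept, and leaving them out is an alternative. A barcode was called admixed, or bearing rod or cone markers, when such markers exceeded 10% of the median rod-like or cone-like level. Retinas match no label, so the matrix counts as 1 sample and no p-value is given.

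CPM values have exact Poisson, shares exact Clopper-Pearson and ratios exact conditional intervals, all at 95% and for counting error only, and a count of 0 was set to 3 counts for a bound. Members, lists and alternatives were chosen with earlier results of these data known. All 8 rows are named. Of each pathway list, the 3 rows with the largest class level over that of all nuclei are named, and rows past 4-fold are named as well. Likeness names up to 5 genes per member, among genes with at least 100 UMIs. TFAP2A, TFAP2B, MEIS2, LHX1A, CHAT and SLC18A3 stood in both the marker and the pathway lists, and they were kept as markers and not counted among pathway results. Of the alternatives, the re-clustering of amacrine-like and horizontal-like nuclei and the addition of the deep unnamed cluster were chosen after seeing the data. The result of 1 planned copy share is not reported here. The count scripts were tested on simulated data. Python 3.11.15, scanpy 1.11.5, numpy 2.4.6, scipy 1.17.1, pandas 2.3.3, scikit-learn 1.9.0, igraph 0.11.9 and matplotlib 3.10.9 were used.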

Additional observations from a re-analysis of the deposited data

How the results depend on the processing

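The split of the copies kept its direction in every setting tried: the log2 ratio of horizontal-like over amacrine-like nuclei stayed between 3.33 and 7.58 for gad1a, 4.37 and 7.83 for slc6a1l, -6.44 and -0.43 for slc6a1a and -6.32 and -0.32 for slc6a1b. The low ends for slc6a1a and slc6a1b come from nuclei picked by detected markers with no clustering, 159 amacrine and 83 horizontal. Of these, 30 and 38 lay in the deep unnamed cluster, and only 44 and 27 in the clustered class of the same name. Their median depths were 11465 and 22546 UMIs. In these marker-picked nuclei the share of gad1a was 32.1% in horizontal and 10.8% in amacrine nuclei. The ratios of SLC32A1 ENSABLG00000006643 (0.48) and ENSABLG00000014099 (0.53) turned to the horizontal side. The cause was not tested. With the deep unnamed cluster added to the amacrine-like class, which was chosen after seeing the data, the amacrine share of gad1a was 18.7%. The number of genes higher in horizontal-like nuclei was 3 at resolutions 1 and 0.5 and 3 with that cluster added. At resolution 0.5 no amacrine-like class was found, so that class gave no value. At both resolutions a cluster that also had amacrine markers was named bipolar-like, so it lay among the other named classes. The number lower in Müller glia-like nuclei was 0 without high doublet scores, 0 without barcodes bearing rod or cone markers and 7 at a fold of 2. With 1 retina left out, the gad1a share ran from 0% to 3.43% in amacrine-like and from 39.7% to 49.8% in horizontal-like nuclei. At 1000 UMIs the co-detection of GAD2 and slc6a1b turned to a log2 odds ratio of -0.63. Without high doublet scores levels were higher, for example 546.3 CPM of slc6a1a in amacrine-like and 1070.2 CPM of slc6a1l in horizontal-like nuclei. No paired analysis was possible because the retina names match no label and no test was made, and the ratios within each retina are given as values. Few UMIs limit SLC32A1 in horizontal-like nuclei, and in Müller glia-like nuclei the levels lie at or below free RNA.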

Other observations

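The retinal pigment epithelium-like nuclei held 97 UMIs of gad1a and 258 of gad1b at levels below those of free RNA, with a gad1a share of 27.3% (22.8 to 32.3) of the gad1a and gad1b UMIs. In free RNA this share was 34.9% (27.8 to 42.4). An unnamed cluster of 46 nuclei held 11 gad1a UMIs in 8 nuclei, 33.7 CPM (16.8 to 60.4), with 2 UMIs of gad1b and none of slc6a1l. That gad1a interval covers the interval of gad1a in free RNA (17.0 to 28.6).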
